A study of Mus musculus with 2 samples.

Results

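The Ikaros family consists of 5 genes that encode zinc finger transcription factors, *Ikzf1* (Ikaros), *Ikzf2* (Helios), *Ikzf3* (Aiolos), *Ikzf4* (Eos) and *Ikzf5* (Pegasus), and the members were taken as the genes listed under these symbols. All 5 were found among the 21041 genes measured in 2 mRNA-seq libraries of DP thymocytes, the abundant thymic cells that carry both CD4 and CD8. The first library came from WT mice, which in the study's methods carried the floxed *Cxxc1* fl/fl allele without Cre, and the second from *Cxxc1*-deficient mice, in which Cre driven by h*CD2* deleted *Cxxc1* from early thymocytes onwards and also in other immune cells. The genotype label of the deficient library reads *Cxxc1*+/- while its title reads KO, and it was grouped by its title. The mice were 3 to 4 weeks old unless specified otherwise in the methods. The number of mice behind each library is not given in the sources used here. Since each genotype has 1 library, hereafter the WT and the deficient library, differences cannot be checked against replicates, no p-value can be given, and each value below compares 2 libraries rather than 2 genotypes.

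Ikaros family proteins bind DNA through N-terminal zinc fingers and pair with each other through zinc fingers at the C-terminal end, so that the members can form mixed dimers. In lymphocytes Ikaros and Aiolos act largely as part of the NuRD remodelling and deacetylase complex and with other corepressors, and they are known for limiting Notch target genes in thymocytes and for shaping expression of the CD8 coreceptor. Helios is best known from regulatory T cells and early thymocytes, Eos from regulatory T cells, where it works with Foxp3, and Pegasus is the most divergent member. Cxxc1 is the subunit of the SETD1 histone methyltransferase complex that recognises unmethylated CpG dinucleotides, and the comparison of the 2 libraries addresses which genes depend on it in DP cells.

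Because Cxxc1 recognises CpG, the CpG content around the start of the members' genes is shown for the members whose promoters RefSeq provides (GRCm38.p6, from 250 bases before to 50 bases after the start). In DP cells the study found Cxxc1 enriched at the centre of CpG islands, but only a small part of its binding sites lay on them. In its cultures a Cxxc1 mutant without DNA binding still rescued thymocyte development. The CpG content therefore does not show whether Cxxc1 binds or acts on these promoters. A promoter was found for 2 members, *Ikzf1* with 2 starts and *Ikzf5* with 1, and for *Ikzf2*, *Ikzf3* and *Ikzf4* none was printed. The sequences run 5′ to 3′ on the strand of the gene, with each CpG in capitals. They lie at chr11:11685675-11685974 (plus strand, upstream start of *Ikzf1*), chr11:11689927-11690226 (plus strand, downstream start of *Ikzf1*) and chr7:131410429-131410728 (minus strand, *Ikzf5*).
Ikzf1 upstream start: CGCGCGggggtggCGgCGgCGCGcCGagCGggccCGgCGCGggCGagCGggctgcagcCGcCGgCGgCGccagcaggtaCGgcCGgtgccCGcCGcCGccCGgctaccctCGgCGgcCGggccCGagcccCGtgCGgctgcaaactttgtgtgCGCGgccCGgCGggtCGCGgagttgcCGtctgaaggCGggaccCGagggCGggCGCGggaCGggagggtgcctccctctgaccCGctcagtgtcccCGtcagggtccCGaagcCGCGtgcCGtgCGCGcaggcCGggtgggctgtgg
Ikzf1 downstream start: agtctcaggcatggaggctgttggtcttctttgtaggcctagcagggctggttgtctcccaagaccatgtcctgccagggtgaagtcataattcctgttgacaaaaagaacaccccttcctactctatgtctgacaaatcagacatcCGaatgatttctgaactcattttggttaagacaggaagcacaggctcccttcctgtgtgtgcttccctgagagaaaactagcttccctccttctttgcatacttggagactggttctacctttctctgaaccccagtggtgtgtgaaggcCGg
Ikzf5 start: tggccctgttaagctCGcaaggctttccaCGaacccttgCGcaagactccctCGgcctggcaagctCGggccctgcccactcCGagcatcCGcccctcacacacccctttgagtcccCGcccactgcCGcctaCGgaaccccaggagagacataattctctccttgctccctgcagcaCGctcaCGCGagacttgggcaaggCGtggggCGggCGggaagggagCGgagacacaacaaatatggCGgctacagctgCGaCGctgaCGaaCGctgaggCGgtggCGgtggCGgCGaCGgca
The upstream *Ikzf1* promoter held 52 CpG in 300 bases at a G+C content of 81.3%, more CpG than 99.4% of the 32851 promoters of the table, whose median was 7. The downstream *Ikzf1* promoter held 2 CpG at a G+C content of 49.0%, more than 14.1% of promoters. The *Ikzf5* promoter held 27 CpG at 65.7%, more than 84.5% of promoters. The letters TGGGAA, taken as one form of the Ikaros motif, were searched on both strands. They were found 0 times in each of these 3 windows, while 25.6% of all promoters of the same length hold them. Shorter forms such as GGGAA were not counted, so the search does not show that a binding site is absent. GGGAA occurs in the *Ikzf5* window and, on the opposite strand as TTCCC, in the downstream *Ikzf1* window. The deposited table gives 1 value per gene, so the starts of *Ikzf1* cannot be followed separately.

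The values of the 2 libraries are a normalized expression value per gene, deposited as whole numbers, and they sum to 1551994 in WT and 981677 in the deficient library, with a median gene at 36 in both. They behave as reads per transcript length, since 75.2% of 2139 short genes in WT and 73.7% of 2193 in the deficient library sit on a whole number of reads when 1 read on 1 kb is worth 4.06 and 4.70, against 22.4% and 19.4% that rounding alone would give. Levels of different genes can therefore be compared per length, and the reads behind each value can be approximated. The targeted gene *Cxxc1* stood at 91 against 50, for a ratio of 0.549 to WT, which became 1.17 with a common median of the genes whose mean reached 100. The value covers the whole gene, exons outside the deleted part included, so it does not check the deletion, and the library is called deficient by its label. The table has 15 Y chromosome genes, of which none had signal in WT (0) and 7 did in the deficient library, so a possible difference in the sex of the mice and the genotype cannot be told apart. All 5 Ikaros family genes are autosomal. Among DP markers, 15 of 15 were lower in the deficient library, as were 59.9% of all genes above 0 in at least 1 library. Most of these markers are abundant, 14 of them with a mean of at least 100. Of the 200 genes closest in mean to *Ikzf1*, 193 were lower. At least 2-fold lower were 12 DP markers (80.0%), against 56.8% of genes whose mean reached 100. The sum of the DP markers was 53073 in WT and 17376 in the deficient library. Their median value in the deficient library was still 573. Among 10 markers of the preceding DN stage, 9 were higher, with sums of 367 and 694. Only *Il2ra* (63 and 207) and *Notch3* (56 and 167) were at least 2-fold higher, against 5.89% of all genes above 0. Others moved little, such as *Kit* (35 and 36) and *Dtx1* (37 and 41), and *Lyl1* was lower (41 and 34). The part of DP and DN cells in the results was not tested, and fewer cells of a type and less RNA per cell cannot be told apart in such bulk libraries.

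*Ikzf1* and *Ikzf3* dominated the family in both libraries. *Ikzf1* had a value of 1575 in WT, the gene of rank 35 in the table, and *Ikzf3* had 1536, rank 36. *Ikzf2* followed with 162, *Ikzf5* with 84 and *Ikzf4* with 26, the only member below the WT median of 36. *Ikzf1* and *Ikzf3* together made up 92.0% of the summed family value in WT and 87.3% in the deficient library. In WT the approximate 95% Poisson intervals of *Ikzf1* (1507 to 1645) and *Ikzf3* (1465 to 1610) overlapped, so their order is not resolved there. The intervals of the other members, 146 to 179 for *Ikzf2*, 67.9 to 103 for *Ikzf5* and 17.9 to 36.5 for *Ikzf4*, did not overlap with one another. The family summed to 3383 in WT and 1404 in the deficient library, a 2.41-fold reduction. In the deficient library 4 of the 5 members were lower, against 59.9% of all genes with signal in either library, and 1, *Ikzf4*, was higher.

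**Figure D1:**
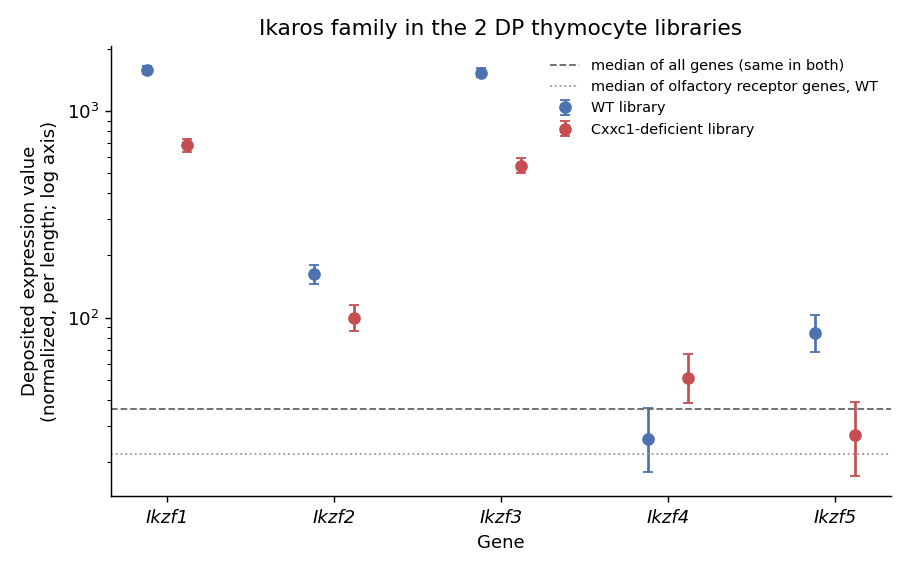
Deposited expression value (log axis) of each Ikaros family gene in the WT library (blue) and the Cxxc1-deficient library (red), with approximate 95% Poisson intervals that cover counting error only. Ikzf1 and Ikzf3 lie far above the median of all genes (dashed, 36) in both libraries, whereas Ikzf4 in WT (26) and Ikzf5 in Cxxc1-deficient cells (27) lie below it.

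Of the 5 members, 3 were at least 2-fold lower in the deficient library, against 17.4% of the 20125 genes above 0 in at least 1 library. None was at least 2-fold higher, against 5.89% of those genes. The count of 3 rests on the scaling as deposited, and it was 1 after scaling to one sum without the 100 highest genes and 0 with a common median of the genes whose mean reached 100. The background share depends on level: 56.8% of the 2472 genes whose mean over both libraries reached 100 were lower by at least 2-fold and 0.485% higher, and for the 13996 genes averaging under 50 the shares were 9.75% and 8.22%. The median log2 ratio of the 5 members, *Cxxc1*-deficient to WT, was -1.21, beside -0.20 over all genes above 0 and -1.08 over genes whose mean reached 100. Each member was therefore compared with the 200 genes nearest in rank of mean value, as a description without a test.

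**Figure D2:**
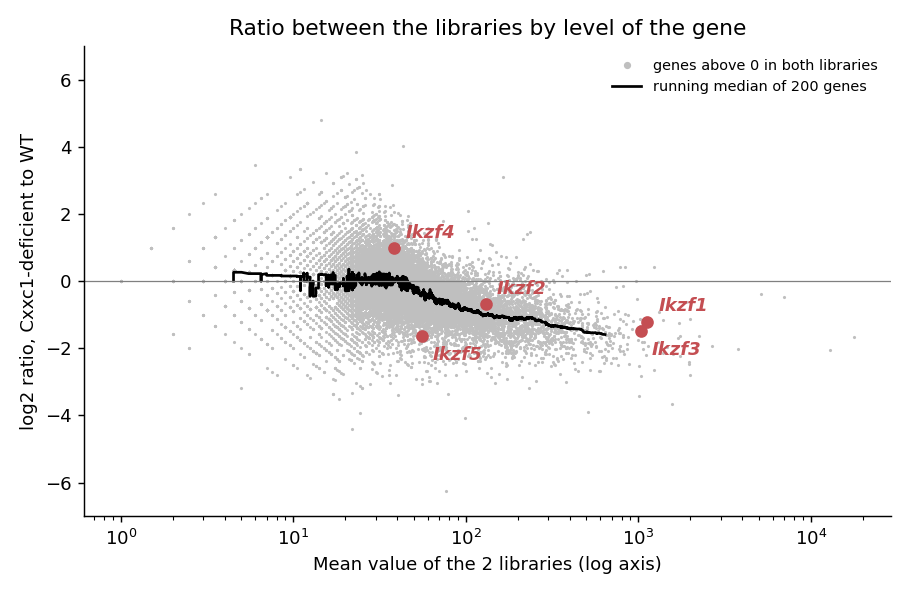
Log2 ratio of Cxxc1-deficient to WT value (vertical) by the mean of the 2 libraries (horizontal, log axis) for all genes above 0 in both libraries (grey), with the running median of 200 genes (black) and the Ikaros family in red. The running median falls with level, Ikzf2 lies just above it, Ikzf4 lies further above and Ikzf5 below it, and Ikzf1 and Ikzf3 lie beyond its right end, which leaves out the highest genes.

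*Ikzf1*, which encodes Ikaros, lies on the plus strand of chromosome 11, between 11585006 and 11672929 in mm9. Its value was 1575 in WT against 682 in the deficient library, approximately 2005 and 749 reads on the longest annotated transcript of 5163 bases. The fold reduction was 2.31, and its approximate Clopper-Pearson interval at 95% ran from 2.12 to 2.51. This was a smaller reduction than in most genes of its level. The 200 genes closest in mean had a median fold reduction of 3.01, and 146 of them had a ratio at least as low. These 200 genes reach the top of the ranking and span means from 437.5 to 17767. Within 1.5-fold of the mean of *Ikzf1* there were 53 genes, with a median fold reduction of 3.16, and 37 of them had a ratio at least as low. The genes whose values were closest to those of *Ikzf1* over the 2 libraries were *Actb*, a cytoskeletal actin gene, with 1589 and 662, *Arpp21*, a gene of immature thymocytes, with 1617 and 733, and *Nfatc3*, a calcium-regulated transcription factor gene, with 1399 and 645. Their distances on the log2(value + 1) scale were 0.0447, 0.111 and 0.189.

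*Ikzf3*, which encodes Aiolos, lies on chromosome 11 from 98326216 to 98407345 on the minus strand. It had 1536 in WT and 544 in the deficient library, approximately 1745 and 533 reads on a transcript of 4607 bases. The fold reduction was 2.82, with an approximate interval from 2.56 to 3.12. The 200 genes closest in mean, which apart from these members themselves are those set beside *Ikzf1*, had a median of 3.01, and 112 of the 200 had a ratio at least as low. Among the 60 genes within 1.5-fold of its mean, the median fold reduction was 3.14 and 35 had a ratio at least as low. The closest patterns were those of *Cd164*, a sialomucin gene, with 1473 and 582, *Ets1*, a transcription factor gene of lymphocytes, with 1677 and 479, and *Rasgrp1*, which encodes an activator of Ras in TCR signalling, with 1350 and 498. Their distances were 0.114, 0.223 and 0.225. B cells also express Aiolos, and of 9 B cell markers the values ran from 18 to 74 in WT and from 4 to 54 in the deficient library, with sums of 293 and 267. Of these 9 markers, 5 were lower and 4 higher, while 59.9% of all genes above 0 were lower. At least 2-fold lower was 1 (11.1%, against 17.4% of all genes above 0). *Cd79b*, the highest in WT, was at 74 and 43. *Ms4a1*, a defining marker, was at 20 and 25, near the median of 1122 olfactory receptor genes, 22 and 24, which stand here for the level of genes that thymocytes do not use.

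*Ikzf2*, which encodes Helios, lies on chromosome 1 from 69577788 to 69732534 on the minus strand and has 1 annotated transcript of 9417 bases. Its value was 162 in WT and 100 in the deficient library, approximately 376 and 200 reads. The reduction was 1.62-fold, under the threshold of 2-fold, with an approximate interval from 1.36 to 1.93. The direction depended on the scaling, since the log2 ratio of -0.70 became -0.13 with the same sum without the 100 highest genes and 0.39 with a common median of the genes whose mean reached 100. The 200 genes of similar mean, from 126 to 136, had a median fold reduction of 2.01, 103 of them were at least 2-fold lower and 146 had a ratio at least as low as that of *Ikzf2*. Relative to those genes *Ikzf2* was higher by 0.31 on the log2 scale. Helios is also a regulatory T cell gene. Of 8 markers of that cell type, 5 were lower and 3 higher, while 59.9% of all genes above 0 were lower. The values of these markers ran from 33 to 195 in WT and from 20 to 277 in the deficient library, with sums of 572 and 705. *Foxp3*, the defining factor, was at 40 and 20. *Il2ra*, which marks DN cells as well, was at 63 and 207 and rose by more than the sum did. The part of these cells in the value of *Ikzf2* was not tested.

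*Ikzf5*, which encodes Pegasus, lies on chromosome 7 from 138532166 to 138554035 on the minus strand. It had 84 in WT and 27 in the deficient library, approximately 92 and 25 reads on a transcript of 4430 bases. The WT value was 3.82 times the olfactory receptor median and the value in the deficient library 1.12 times, so that in the deficient library *Ikzf5* stood at the level of unused genes. The fold reduction was 3.11, with an approximate interval from 2.02 to 5.16 for counting error only. With the olfactory receptor median subtracted, the log2 ratio was -4.37 in place of -1.64, outside that interval, so the size of the reduction depends on how the low values are treated. With the shortest annotated transcript longer than 2000 bases in place of the longest, the ratio of 0.321 had an interval whose upper end was 0.617. The 200 genes of similar mean had a median fold reduction of 1.35, and 4 of them had a ratio at least as low as *Ikzf5*, while 26 (13.0%) were at least 2-fold lower. Among all 6959 genes within 1.5-fold of its mean, 2.24% had a ratio at least as low. The neighbouring genes are close, with *Acadsb*, a mitochondrial acyl-CoA dehydrogenase gene, 79 bases away at 75 and 53, and *Pstk*, a kinase gene of selenocysteine synthesis, 812 bases away at 108 and 75. Both were lower by less, with fold reductions of 1.42 and 1.44. The annotated span of *Fgfr2*, a growth factor receptor gene on the same strand, overlaps *Ikzf5* and had 29 and 37.

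*Ikzf4*, which encodes Eos, lies on chromosome 10 from 128067899 to 128083047 on the minus strand and was the member that was higher in the deficient library. It had 26 in WT and 51 in the deficient library, approximately 33 and 56 reads on a transcript of 5150 bases. The ratio was 1.96, just under 2-fold, with an approximate interval from 1.26 to 3.12. With the shortest annotated transcript longer than 2000 bases the interval ran from 0.988 to 4.16 and included no change. The level was low in both libraries. The WT value was 1.18 times and the value in the deficient library 2.12 times the olfactory receptor median, and a 10th of the olfactory receptor genes exceeded 46.9 in WT and 50.9 in the deficient library. Among the 200 genes of similar mean, whose median log2 ratio was 0.04, 14 had a ratio at least as high. Within 1.5-fold of its mean, 4.09% of 10551 genes did. Eos is also expressed by regulatory T cells, whose markers summed to 572 in WT and 705 in the deficient library. Of these 8 markers, 5 were lower and 3 higher, while 59.9% of all genes above 0 were lower. *Foxp3* was at 40 and 20 and *Tnfrsf18* at 76 and 23. *Nrp1* was at 195 and 277 and *Il2ra*, which marks DN cells as well, at 63 and 207. The rise of *Il2ra* was larger than that of the sum. The part of regulatory T cells in the value of *Ikzf4* was not tested. With the olfactory receptor median subtracted, the log2 ratio of *Ikzf4* was 2.75 in place of 0.97, so its size depends on how the low values are treated.

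**Figure D3:**
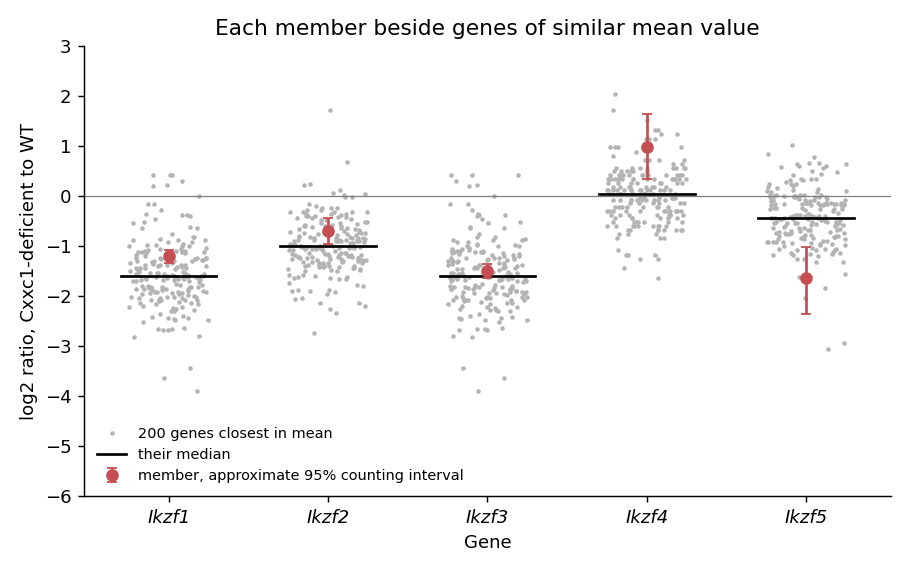
Log2 ratio of Cxxc1-deficient to WT value for each Ikaros family gene (red, with its approximate 95% Clopper-Pearson interval) beside the 200 genes closest in mean value (grey points, black line at their median). Ikzf3 lies near the median of its 200 genes, Ikzf1 and Ikzf2 lie above it by 0.38 and 0.31, Ikzf5 lies at -1.20 relative to it and Ikzf4 at 0.93.

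The balance between the members differed between the libraries. The ratio of 1 member to another within a library does not depend on how the libraries are scaled, and all 10 pairs were compared without adjustment. *Ikzf1* was 1.03 times *Ikzf3* in WT and 1.25 times in the deficient library, a change of 1.22-fold with an approximate 95% interval from 1.07 to 1.39 (normal interval of the log ratio from approximate reads). In *Cxxc1*-deficient cells the Poisson intervals of *Ikzf1* (634 to 733) and *Ikzf3* (499 to 592) no longer overlapped. The interval of the change excluded 1 for 8 of the 10 pairs. These pairs share 5 genes, so they are not independent. The ratio between the libraries also moved with level. The 200 genes of similar mean had a median fold reduction of 3.01 for *Ikzf1* and *Ikzf3* and 2.01 for *Ikzf2*. It was 1.35 for *Ikzf5* and 0.974 for *Ikzf4*. Pairs of unlike level would thus shift in other genes as well. Pairs of like level can also shift, since the 200 genes beside *Ikzf1* and *Ikzf3* had log2 ratios with quartiles of -1.95 and -1.16. The log2 ratios of *Ikzf1* (-1.21) and *Ikzf3* (-1.50) both lay between these quartiles. No share was computed for other pairs of genes, of like or unlike level. The 2 pairs whose interval included 1 were *Ikzf1* with *Ikzf5*, at 1.35 with an interval from 0.859 to 2.11, and *Ikzf3* with *Ikzf5*, at 1.10 from 0.701 to 1.73. *Ikzf2* was 0.106 times *Ikzf3* in WT and 0.184 times in the deficient library, a change of 1.74-fold from 1.43 to 2.12. Its share of the family was 4.79% in WT and 7.12% in the deficient library. The largest change was between *Ikzf4* and *Ikzf5*, the least expressed members. *Ikzf4* was 0.309 times *Ikzf5* in WT and 1.89 times in the deficient library, a change of 6.10-fold from 3.29 to 11.3. Its size depends on the low values of 26 and 27, as the log2 ratios of 2.75 and -4.37 after subtraction of the olfactory receptor median show. In *Cxxc1*-deficient cells their Poisson intervals, 38.6 to 66.4 for *Ikzf4* and 17.2 to 39.2 for *Ikzf5*, overlapped slightly. These intervals cover counting error only.

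Genes next to the abundant members did not share their values. *Ikzf1* is flanked by *Zpbp*, a sperm gene, at 44 in both libraries, and by *Fignl1*, a DNA repair gene, at 58 in WT and 61 in the deficient library. *Ikzf3* is flanked by *Grb7*, a signalling adaptor gene, at 10 and 35, and by *Zpbp2*, at 40 and 43. On either side of *Ikzf2* were *Erbb4*, at 24 and 31, and *Spag16*, at 70 and 59, and *Ikzf4* lies between *Rps26*, listed at 0 in both, and *Suox*, at 98 and 38. *Grb7* was the flanking gene with the largest ratio, 3.50, from values in the range of the olfactory receptor genes.

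Genes whose products work with Ikaros proteins were followed as lists. Of the 13 NuRD genes, 7 (53.8%) were lower by 2-fold or more and 0 higher by as much in the deficient library, against 17.4% and 5.89% of all genes above 0, and 56.8% and 0.485% of genes whose mean reached 100. Their median log2 ratio was -1.10. The 6 of highest mean were *Mbd2*, which binds methylated DNA, with 840 and 231, *Chd4*, the ATPase of the complex, with 493 and 170, *Gatad2b*, a scaffold subunit, with 504 and 294, *Hdac2*, a deacetylase, with 389 and 89, *Mta2*, with 229 and 107, and *Mta3*, with 104 and 167. *Mta3* was thus higher by 1.61-fold, whereas *Hdac2* was 4.37-fold lower. Of 8 other corepressor and remodeller genes, 5 had a mean of at least 100. All 8 were lower, as were 59.9% of all genes above 0, with a median log2 ratio of -0.82. At least 2-fold lower were 3 (37.5%, against 17.4% of all genes and 56.8% of genes whose mean reached 100). Of the 8, *Smarca4*, the ATPase of SWI/SNF, had 406 and 238, *Rb1* 311 and 209 and *Sin3b*, a scaffold of deacetylase complexes, 299 and 68. *Sin3a* had 232 and 101, *Smarcc1* 170 and 85, and *Ctbp1* 89 and 68.

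In human cells, Ikaros and Aiolos are substrates of the ubiquitin ligase built on cereblon when thalidomide-type drugs are bound. Whether this holds for the mouse proteins was not examined here. The 5 genes of this ligase were all lower, as were 59.9% of all genes, 2 of them at least 2-fold (40.0%, against 17.4% of all genes and 56.8% of genes whose mean reached 100), with a median log2 ratio of -0.80. *Crbn*, the substrate receptor, had 255 and 147, *Ddb1*, the adaptor, 255 and 97, *Cul4b* 157 and 90, *Cul4a* 87 and 62 and *Rbx1*, the RING subunit, 96 and 20. *Crbn* and *Ikzf1* were reduced 1.73-fold and 2.31-fold.

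Genes linked to Ikaros family proteins in T cells did not share a direction. Of 16 genes, 9 were lower and 7 higher, 6 of them (37.5%) by 2-fold or more and 3 by 2-fold or more, respectively. The list's median log2 ratio was -0.59. Of all genes above 0, 59.9% were lower. The shares past 2-fold over all genes were 17.4% and 5.89%, and over genes whose mean reached 100 they were 56.8% and 0.485%. The 6 of highest mean were all lower by at least 2-fold, namely *Rag1*, the recombinase gene, with 20778 and 5058, *Cd8a* with 3503 and 507, *Cd8b1* with 2855 and 611, *Cd4* with 2728 and 1257, *Dntt*, which encodes the terminal transferase TdT, with 1859 and 172, and *Rag2* with 1219 and 405. *Dntt* was 10.8-fold lower, the largest reduction of the list. The 3 genes higher by 2-fold or more were *Il2ra*, *Notch3* and *Notch1*. *Il2ra*, the CD25 gene, had 63 and 207, *Notch3* 56 and 167, and *Notch1* 124 and 326, ratios of 3.29, 2.98 and 2.63. Other genes of the list that respond to Notch signals did not pass 2-fold, with *Hes1* at 28 and 52, *Dtx1* at 37 and 41 and *Ptcra* at 79 and 44. *Il2ra* and *Notch3* were also in the DN marker list, and their ratios are the values of that list that moved furthest. Of 8 genes linked to the family in B cells, 3 (37.5%, against 17.4% of all genes) were lower by 2-fold or more and 0 higher by as much (5.89% of all genes), with values from 5 to 199 in WT. Of these 3, *Cd79a* with 18 and 4 and *Vpreb1* with 5 and 0 lay below the olfactory receptor medians of 22 and 24 in both libraries. *Foxo1*, which T cells also express, had 199 and 86, *Cd79b* 74 and 43, *Ebf1* 34 and 47, *Blnk* 21 and 29, *Igll1* 28 and 22 and *Pax5* 20 and 19.

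**Figure D4:**
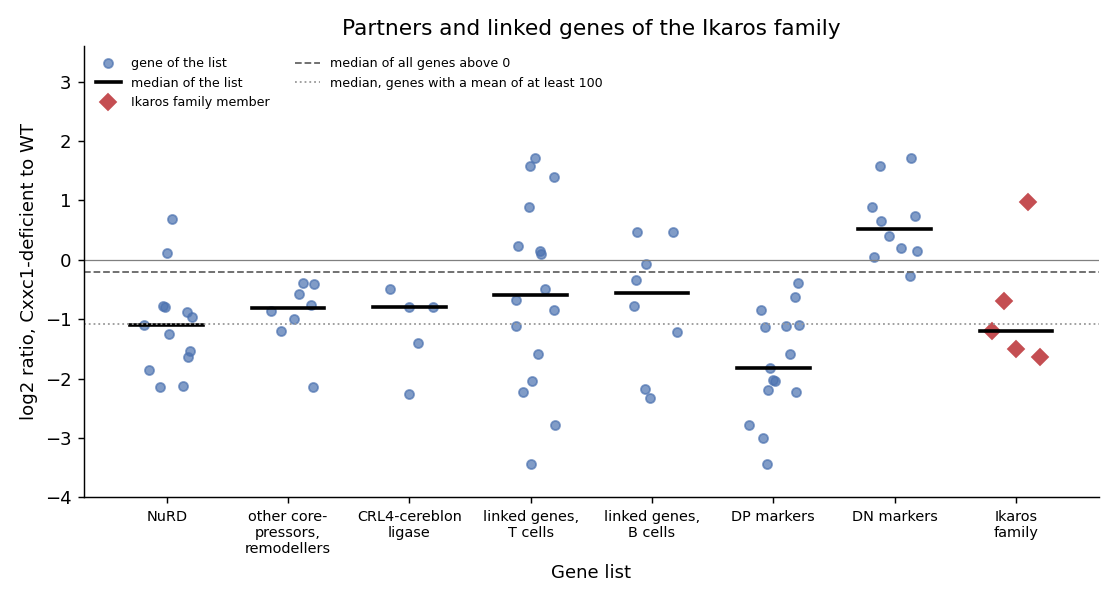
Log2 ratio of Cxxc1-deficient to WT value for each gene (blue points, black bar at the list's median) of the partner, ligase, linked and thymocyte marker lists, with the Ikaros family in red and the medians of all genes above 0 (dashed) and of genes with a mean of at least 100 (dotted). The NuRD list (median -1.10) and the Ikaros family (-1.21) lie near the dotted line at -1.08, the DP markers below it and the DN markers above 0.

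Markers of further cell types were also followed. The 10 NK and innate lymphoid genes summed to 343 in WT and 268 in the deficient library, with *Ncr1* at 14 and 26 and the highest, *Gzma*, at 102 and 54. Of them 6 were lower and 4 higher, 2 (20.0%) at least 2-fold lower and 0 higher by as much. The 11 macrophage and dendritic cell genes in the table summed to 416 and 380, with *Csf1r* at 24 and 35 and the highest, *Itgam*, at 101 and 107. Here 5 were lower and 6 higher, 3 (27.3%) at least 2-fold lower, *Lyz2*, *C1qa* and *C1qc*, and 0 higher by as much. Over all genes above 0 the shares past 2-fold were 17.4% lower and 5.89% higher. The 10 erythroid genes summed to 196 and 210, and 3 of them, all globin genes, were listed at 0 in both, as was the ribosomal gene *Rps26*, so a listed 0 does not show that a gene is silent. The part of these cells in the values of the members was not tested.

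**Figure D5:**
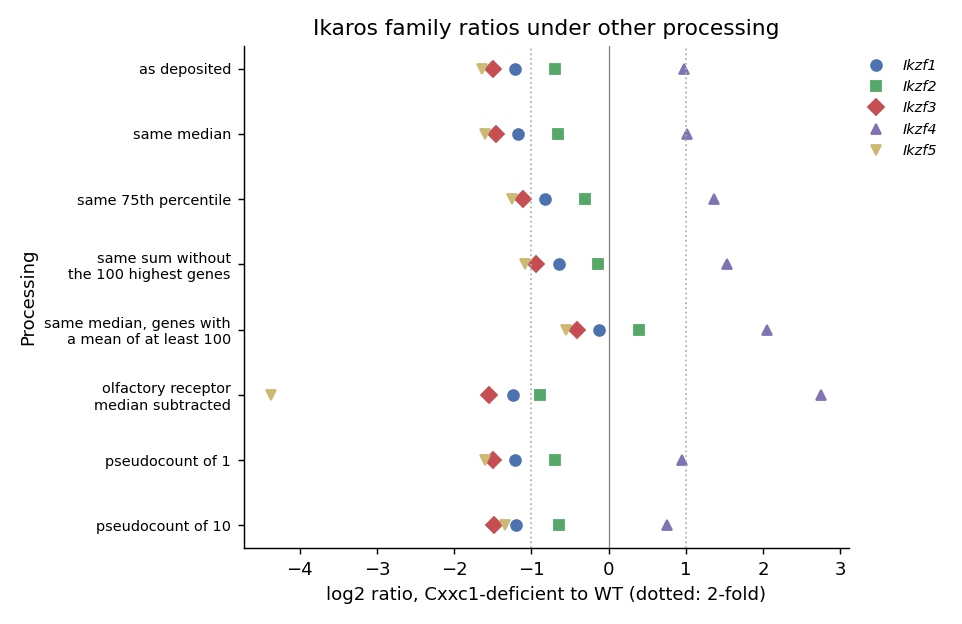
Log2 ratio of Cxxc1-deficient to WT value of each Ikaros family gene under the values as deposited, 4 other scalings of the libraries, background subtraction and pseudocounts of 1 and 10 (rows), with dotted lines at 2-fold. Scalings move all 5 genes together by the same amount, and at a common median of well-expressed genes Ikzf2 turns from -0.70 to 0.39, whereas background subtraction moves Ikzf4 to 2.75 and Ikzf5 to -4.37 and changes the other 3 little.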

How the data were processed

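The authors prepared mRNA-seq libraries from total RNA of DP thymocytes, obtained reads of 50 bases with CASAVA 1.8.2, mapped them to mm9 (the submitters' processing notes list Bowtie 1.0.1), discarded reads without a unique position and summarised the rest in Partek. What they deposited is a score: for each gene, a normalized expression level in either library, given as a whole number after rounding. The gene annotation and the unit are not given in the sources used here. The table has 21041 genes and 1 library per genotype.

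Each deposited value below 1 was set to 1 before ratios were formed, with the study's threshold of 2-fold. No test was run. The value of 1 read was estimated from genes with 1 annotated transcript length between 200 and 1300 bases and under 15 reads, a match being within rounding. Transcript lengths and positions came from GENCODE vM1 (NCBIM37, equivalent to mm9), so reads and intervals are approximate. The members and gene lists were chosen with earlier results of these data known. Named genes were the members, *Cxxc1*, the 3 genes most like each of the 2 highest members, flanking coding genes and, per partner or linked list, the 6 genes of highest mean and any past 2-fold against the list's median. Other marker genes and *Fgfr2* were named after their values were seen. One marker gene is not reported here. Calculations were tested on simulated data with the same shift at every level and with known reads and lengths. The simulation therefore did not check the comparison with similar genes under a shift that moves with level. Nor did it check the approximation of reads. Alternatives were 4 other scalings, subtraction of the olfactory receptor median, pseudocounts of 1 and 10, other sets of similar genes and thresholds of 1.5-fold and 3-fold. The software was Python 3.11.15 with scipy 1.17.1, pandas 2.3.3, numpy 2.4.6 and matplotlib 3.10.9.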

Additional observations from a re-analysis of the deposited data

How the results depend on the processing

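No paired analysis was possible because there is a single library of either genotype. Of the alternative values computed, 83 stayed within the approximate counting interval or within 1.5 times the count, 21 moved further and 2 reversed. Scalings to the same 75th percentile, to the same sum without the 100 highest genes and to a common median of the genes whose mean reaches 100 shift every log2 ratio by 0.39, 0.56 and 1.08, by construction. In this order the log2 ratio was -0.82, -0.65 and -0.12 for *Ikzf1*, which is also the family median, -0.31, -0.13 and, reversed, 0.39 for *Ikzf2*, and -1.11, -0.94 and -0.41 for *Ikzf3*. With the last of these it was 2.06 for *Ikzf4* and -0.55 for *Ikzf5*. The number of members at least 2-fold lower, 3 as deposited, was 1 with the same sum, 0 with the last scaling and 1 at a threshold of 3-fold. With the olfactory receptor median subtracted, the log2 ratio was 2.75 for *Ikzf4* and -4.37 for *Ikzf5*, and relative to genes of similar mean 2.85 and -3.57, since values of 26 and 27 then leave 4 and 3 units. Relative to 500 genes in place of 200, *Ikzf1* was at 0.21 and *Ikzf3* reversed from 0.09 to -0.085, because the larger set takes in genes of lower mean. Over the alternatives, the value relative to genes of similar mean stayed between 0.24 and 0.40 for *Ikzf2*, was at least 0.63 for *Ikzf4* and at most -0.98 for *Ikzf5*. Scalings shift a member and its similar genes equally, so under them this value can change only through the choice of similar genes. Requiring similar genes to reach 10 in both libraries left it unchanged. These settings are counted in the 83 and say little about stability. The set of all genes within 1.5-fold of a member's mean was added after seeing the data. The approximate number of reads, 25 to 92, limits *Ikzf4* and *Ikzf5*.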
